A study of Mus musculus with 12 samples.

Results

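Respiratory complex I is the NADH:ubiquinone oxidoreductase of the inner mitochondrial membrane. It was followed through 41 of the 17097 mouse genes that the arrays named with 1 symbol. Their symbols begin with Nduf, a letter code (a, b, c, s, v or af) and a number. Each gene was represented by its brightest probe set over the 12 arrays. By the known place of their products the 41 genes comprised 6 core subunits, 9 accessory subunits of the matrix arm, 16 accessory subunits of the membrane arm, 7 assembly factors named Ndufaf, 2 genes that carry the name without being complex I subunits (Ndufa4 and Ndufa4l2) and 1 pseudogene symbol (Ndufs5-ps). Ndufab1, whose letter code differs, is read with the other lists below. Further Nduf genes, among them Ndufa13, Ndufb1, Ndufb6, Ndufs5 and Ndufaf7, were not analysed here.

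Cells were sorted from colon adenomas, benign tumours of the large intestine, into 4 populations by the status of Mex3a, an RNA-binding protein, and of Lgr5, a receptor that marks intestinal stem cells. The Mex3a+ cells were divided into Lgr5+ and Lgr5- cells, and so were the Mex3a- cells. Each population was taken once from each of 3 mice, MKL347, MKL358 and MKL367, so that 6 Mex3a+ arrays stood against 6 Mex3a- arrays and every contrast lay within a mouse. All 3 mice carried the label ki/+, whose allele is not given in the sources used here, and each sample pooled several adenomas of its mouse. Every pool of MKL358 held 500 cells and every pool of the other mice held 2000 cells, so mouse and cell number cannot be told apart. The labels used here do not say how Mex3a was detected, which genotype gave the adenomas or how old the mice were. RNA was amplified before hybridisation to Affymetrix arrays, and all values below are RMA signals on the log2 scale, 1 unit being a doubling. They are compared between arrays for 1 probe set and never between genes. In sorted pools fewer cells of a type and less RNA per cell cannot be told apart.

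Complex I takes electrons from NADH through a flavin and a chain of iron-sulphur clusters in its matrix arm, passes them to ubiquinone, and pumps protons through its membrane arm. Core subunits, conserved from bacteria, hold the cofactors and the catalytic sites. Accessory subunits surround and stabilise the core, and assembly factors act on intermediates without staying in the finished enzyme. In the colon, differentiated colonocytes are known for oxidising short-chain fatty acids in their mitochondria.

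The sorted markers followed the labels. Mex3a was between 6.78 and 7.31 on the 6 Mex3a+ arrays and between 5.93 and 6.57 on the 6 Mex3a- arrays (log2 difference 0.69, limma adjusted p = 0.00162). Lgr5 was between 7.95 and 8.53 on the Lgr5+ arrays and between 5.76 and 7.49 on the Lgr5- arrays (log2 difference 1.55, limma adjusted p = 8.72e-04), and it was also higher by 0.82 in Mex3a+ than in Mex3a- cells (limma adjusted p = 0.00139). Array medians ran from 4.86 to 4.92. All 41 genes passed the filter on low signal, which kept 12595 genes for the test.

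Promoter stretches are shown for the member with the largest fall in each of the main roles, among those with an entry. Ndufv2, the core subunit that did not fall, is shown as well. Each is the 250 bases before the annotated start in RefSeq (GRCm38.p6), written 5′ to 3′ on the strand of the gene. Capitals mark exact matches, on either strand, to GCGCATGC, the recognition motif of the factor NRF1, or to CCGGAAG, a motif of ETS factors such as GABP; both factors are known for nuclear genes of the respiratory chain.
Ndufs3, core subunit with the largest fall in the table, chr2:90904722-90904971, minus strand: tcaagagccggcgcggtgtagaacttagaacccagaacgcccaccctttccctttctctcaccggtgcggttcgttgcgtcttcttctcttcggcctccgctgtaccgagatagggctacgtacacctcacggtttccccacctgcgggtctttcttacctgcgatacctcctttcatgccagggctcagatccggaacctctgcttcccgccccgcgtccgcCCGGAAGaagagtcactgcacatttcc
Ndufa9, matrix-arm accessory subunit with the largest fall, chr6:126849145-126849394, minus strand: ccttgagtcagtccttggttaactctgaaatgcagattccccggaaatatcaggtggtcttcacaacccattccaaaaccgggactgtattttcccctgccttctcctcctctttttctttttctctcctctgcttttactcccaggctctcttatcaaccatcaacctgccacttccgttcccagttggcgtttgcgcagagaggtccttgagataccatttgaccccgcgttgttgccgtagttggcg
Ndufa8, membrane-arm accessory subunit with the largest fall, chr2:36049339-36049588, minus strand: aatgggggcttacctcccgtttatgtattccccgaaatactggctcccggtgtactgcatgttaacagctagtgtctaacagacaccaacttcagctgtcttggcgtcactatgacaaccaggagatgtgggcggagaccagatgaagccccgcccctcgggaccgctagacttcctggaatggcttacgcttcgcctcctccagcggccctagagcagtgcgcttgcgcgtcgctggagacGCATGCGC
Ndufaf4, assembly factor with the largest fall, chr4:24897833-24898082, plus strand: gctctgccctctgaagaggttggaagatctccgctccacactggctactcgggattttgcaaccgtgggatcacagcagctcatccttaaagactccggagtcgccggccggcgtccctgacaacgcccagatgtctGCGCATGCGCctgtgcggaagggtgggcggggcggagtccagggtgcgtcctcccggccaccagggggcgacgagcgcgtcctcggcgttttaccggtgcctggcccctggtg
Ndufv2, core subunit that did not fall, chr17:66101560-66101809, minus strand: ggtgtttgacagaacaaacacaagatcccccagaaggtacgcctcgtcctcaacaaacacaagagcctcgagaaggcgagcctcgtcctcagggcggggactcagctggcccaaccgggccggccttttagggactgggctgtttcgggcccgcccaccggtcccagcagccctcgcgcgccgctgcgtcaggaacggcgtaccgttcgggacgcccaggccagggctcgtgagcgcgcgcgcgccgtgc

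The Ndufs3 stretch held the ETS motif beginning 27 bases before the start, and the Ndufa8 stretch held NRF1 on the opposite strand ending at the base before the start. Ndufaf4 held 2 overlapping NRF1 matches, 1 on each strand, the first beginning 113 bases before the start. No such match stood in the Ndufa9 or Ndufv2 stretches. RefSeq's table held a promoter for 35 of the 41 genes. NRF1 was present in 4 of them (11.4%), against 2.93% of 21262 promoters of coding genes, and the ETS motif in 4 (11.4%), against 8.98% of coding genes. AAGATGGC, a YY1 motif, and TCAAGGTCA, a motif of oestrogen-related receptors, were in none of the 35, against 1.5% and 0.32% of coding promoters. Among the 24 genes with a promoter that fell in Mex3a+ cells, 2 held NRF1 and 3 held ETS. Among the 11 that did not pass, 2 held NRF1 and 1 held ETS.

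Complex I genes were lower in Mex3a+ than in Mex3a- cells. Averaged over both Lgr5 states, 28 of the 41 genes fell at a limma adjusted p under 0.05 and none rose, while 13 did not pass. This main fit did not use the pairing by mouse. Among all 12595 genes tested, 17.3% fell and 9.91% rose. The median log2 difference over the 41 genes was -0.30, against -0.013 over all genes, and 40 of the 41 values were negative. The differences were modest in size, from -0.58 (1.50-fold lower, Ndufa9) to 0.07 (Ndufv2). In 18 genes, all called, every Mex3a+ array lay below every Mex3a- array, a pattern shown by 9.02% of all genes; in the other 23 the arrays overlapped. Of the same-mouse pairs, 3 in each Lgr5 state, all 6 were lower in 26 genes, a pattern shown by 21.7% of all genes. A further 9 genes were lower in 5 pairs and 6 in fewer; 2 pairs come from each mouse and are not independent.

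**Figure D1:**
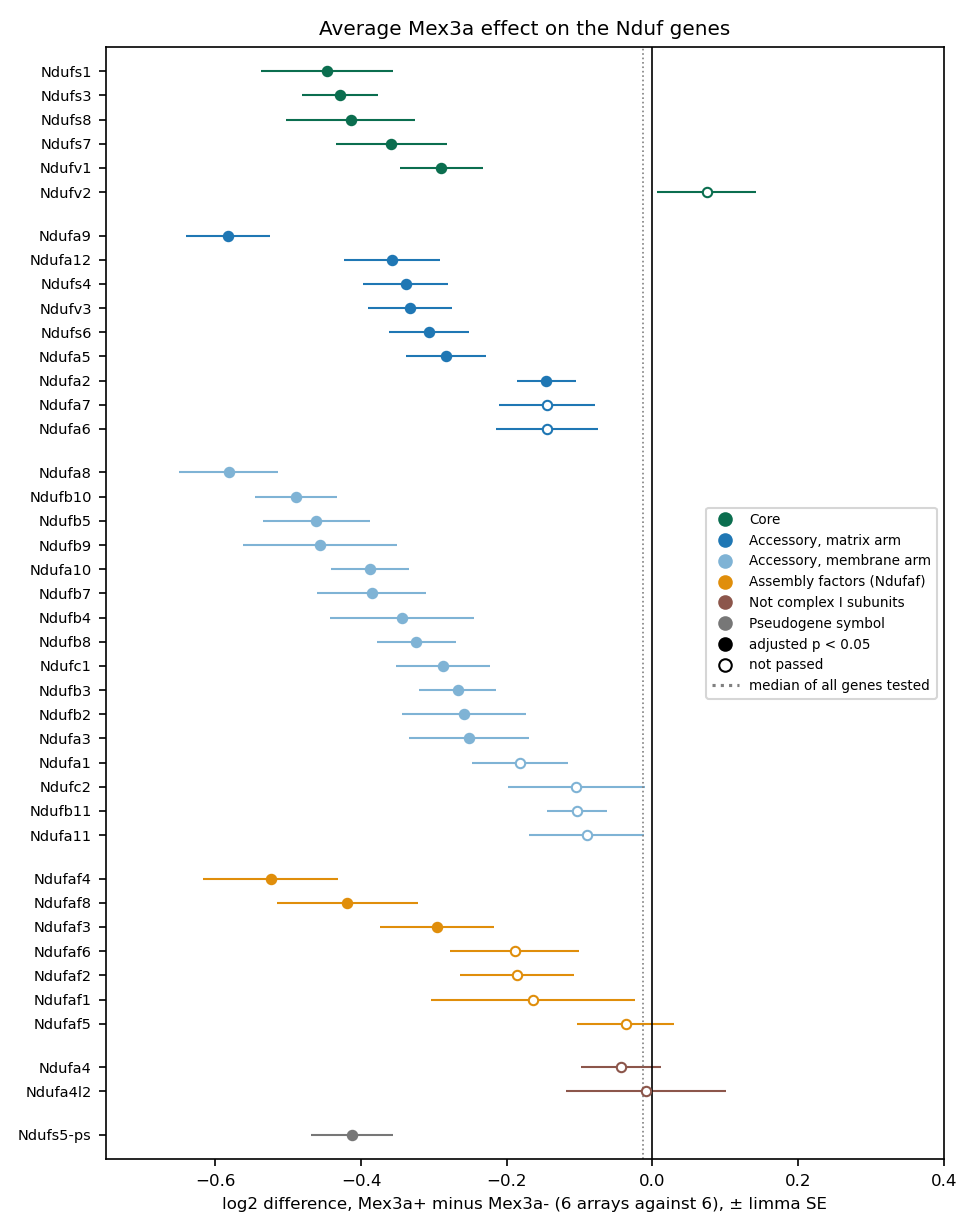
Log2 difference between Mex3a+ and Mex3a- arrays (horizontal axis, 6 arrays against 6, with limma's standard error) for each of the 41 Nduf genes, grouped by role; filled points passed an adjusted p of 0.05 and the dotted line is the median of all genes tested, -0.013. All points but Ndufv2 lie left of 0, and 28 are filled.

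With the mouse as a block, 32 of the 41 genes fell and none rose, where 25.3% of all genes fell; Ndufa1, Ndufb11, Ndufaf2 and Ndufaf6 were the genes added. The count was lower when MKL347 or MKL367 was left out. It was 15 without MKL347, where 5.83% of all genes fell, and 14 without MKL367, where 7.7% fell, while the median stayed between -0.33 and -0.29 in every fit that left out a mouse or an array. Rescaling the arrays moved the balance over all genes. The deposited values gave 1248 genes higher and 2174 lower, a further quantile normalization gave 1451 higher and 1670 lower, and centring each array on its median gave 1661 higher and 1723 lower. Under both of these scalings 23 of the 41 genes fell and none rose, and 22 of the 28 called genes were called under both.

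**Figure D2:**
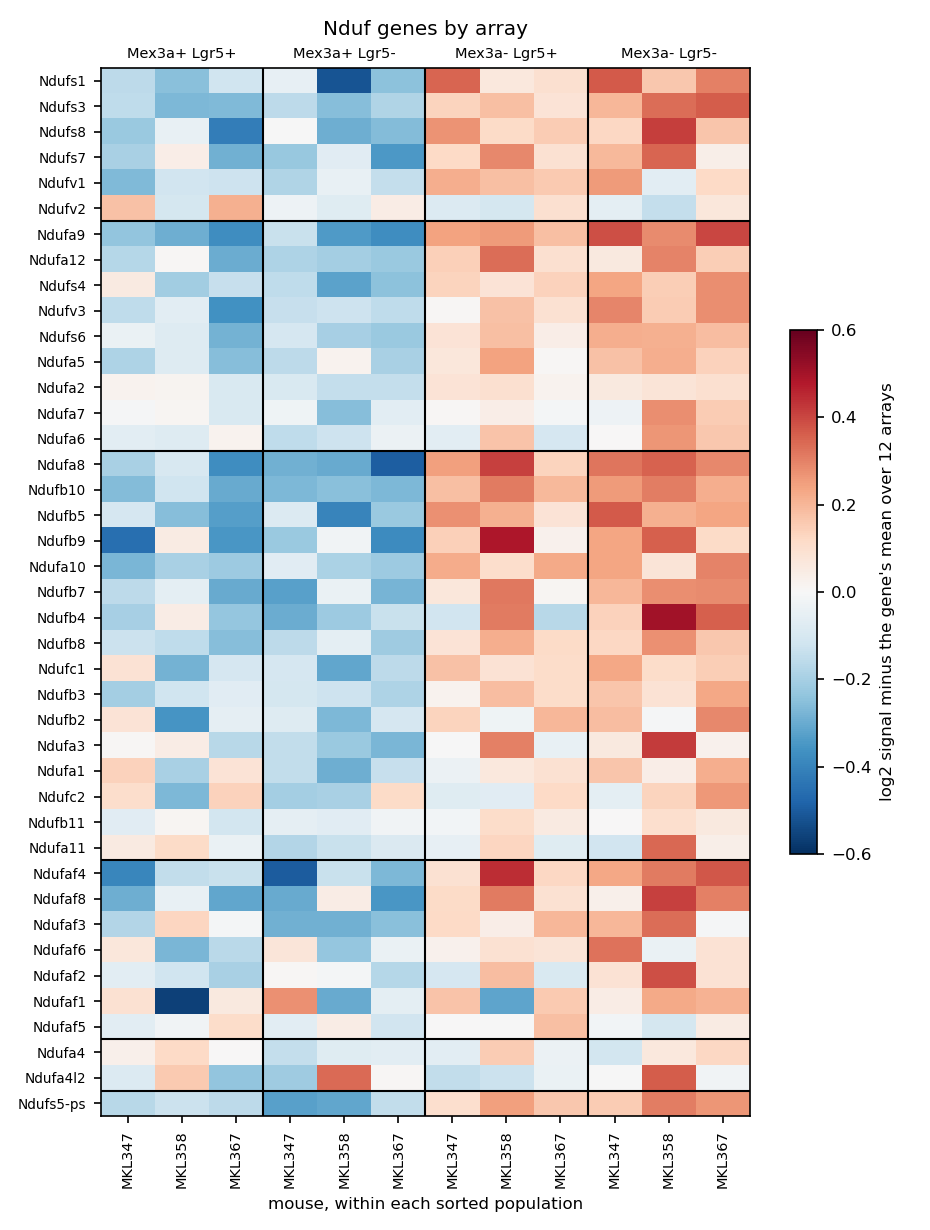
Signal of each Nduf gene on each of the 12 arrays, as the log2 signal minus the gene's mean over all arrays (colour, blue below and red above); columns are mice within the 4 sorted populations and horizontal lines divide the roles, from the core at the top to the pseudogene symbol at the bottom. The 6 Mex3a+ columns are mostly blue and the 6 Mex3a- columns mostly red, apart from Ndufv2, Ndufa4, Ndufa4l2 and the lower rows of the membrane-arm and assembly-factor blocks.

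Among the core subunits 5 of 6 fell and 1 did not pass, with a median log2 difference of -0.39. In the sentences that follow, values are listed for mice MKL347, MKL358 and MKL367 in that order.

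Ndufs1, the largest core subunit and a carrier of iron-sulphur clusters at the NADH end, had 7.59, 7.50 and 7.63 in Mex3a+ Lgr5+ cells and 7.70, 7.23 and 7.50 in Mex3a+ Lgr5- cells, against 8.10, 7.81 and 7.84 in Mex3a- Lgr5+ cells and 8.11, 7.91 and 8.05 in Mex3a- Lgr5- cells. All Mex3a+ arrays lay below all Mex3a- arrays, the lowest being Mex3a+ Lgr5- of MKL358. The log2 difference was -0.45 ± 0.091 (SE; 1.36-fold lower, limma adjusted p = 0.00375), and the call was lost without MKL367.

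Ndufs3, a core subunit of the ubiquinone-binding module and the gene of the first promoter above, had 9.39, 9.27 and 9.28 in Mex3a+ Lgr5+ cells and 9.39, 9.29 and 9.36 in Mex3a+ Lgr5- cells, against 9.67, 9.72 and 9.62 in Mex3a- Lgr5+ cells and 9.74, 9.88 and 9.90 in Mex3a- Lgr5- cells. The 6 Mex3a+ arrays spanned 9.27 to 9.39 and none reached the lowest Mex3a- array. The log2 difference of -0.43 ± 0.052 (SE, limma adjusted p = 2.26e-04) was called in all 24 alternative fits.

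Ndufs7, which holds the last iron-sulphur cluster before ubiquinone, had 10.34, 10.58 and 10.25 in Mex3a+ Lgr5+ cells and 10.31, 10.47 and 10.19 in Mex3a+ Lgr5- cells, against 10.65, 10.82 and 10.62 in Mex3a- Lgr5+ cells and 10.73, 10.88 and 10.57 in Mex3a- Lgr5- cells. The groups touched at 1 point only, where the highest Mex3a+ array (MKL358) was just above the lowest Mex3a- array (MKL367), and within each mouse both pairs were lower. The log2 difference was -0.36 ± 0.077 (SE, limma adjusted p = 0.00491), and the second probe set of the gene gave -0.45; without MKL347 the call was lost.

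Ndufs8, another iron-sulphur protein on the way to ubiquinone, had 7.87, 8.04 and 7.67 in Mex3a+ Lgr5+ cells and 8.09, 7.79 and 7.83 in Mex3a+ Lgr5- cells, against 8.36, 8.21 and 8.24 in Mex3a- Lgr5+ cells and 8.21, 8.51 and 8.26 in Mex3a- Lgr5- cells. No Mex3a+ array reached the Mex3a- arrays. The log2 difference was -0.41 ± 0.089 (SE, limma adjusted p = 0.00496), and its 3 other probe sets gave -0.56, -0.28 and -0.11, of which the last did not pass (limma adjusted p over probe sets = 0.414). The call was lost without MKL347 and without MKL367.

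Ndufv1, the subunit that binds NADH and the flavin, had 10.52, 10.67 and 10.66 in Mex3a+ Lgr5+ cells and 10.60, 10.74 and 10.64 in Mex3a+ Lgr5- cells, against 11.00, 10.97 and 10.94 in Mex3a- Lgr5+ cells and 11.04, 10.72 and 10.90 in Mex3a- Lgr5- cells. The single overlap came from MKL358, whose Mex3a- Lgr5- array was slightly below its Mex3a+ Lgr5- array. The log2 difference was -0.29 ± 0.057 (SE, limma adjusted p = 0.0030), and it too was lost without MKL347 and without MKL367.

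Ndufv2, the iron-sulphur partner of Ndufv1 in the NADH-oxidising tip, had 10.25, 9.97 and 10.29 in Mex3a+ Lgr5+ cells and 10.05, 10.01 and 10.12 in Mex3a+ Lgr5- cells, against 10.00, 9.97 and 10.18 in Mex3a- Lgr5+ cells and 10.02, 9.94 and 10.15 in Mex3a- Lgr5- cells. The groups overlapped along nearly their whole range, and 2 of the 6 pairs were lower in Mex3a+ cells. The log2 difference was 0.07 ± 0.068 (SE, limma adjusted p = 0.454). A second probe set of the gene gave -0.057 and did not pass either (limma adjusted p over probe sets = 0.568).

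**Figure D3:**
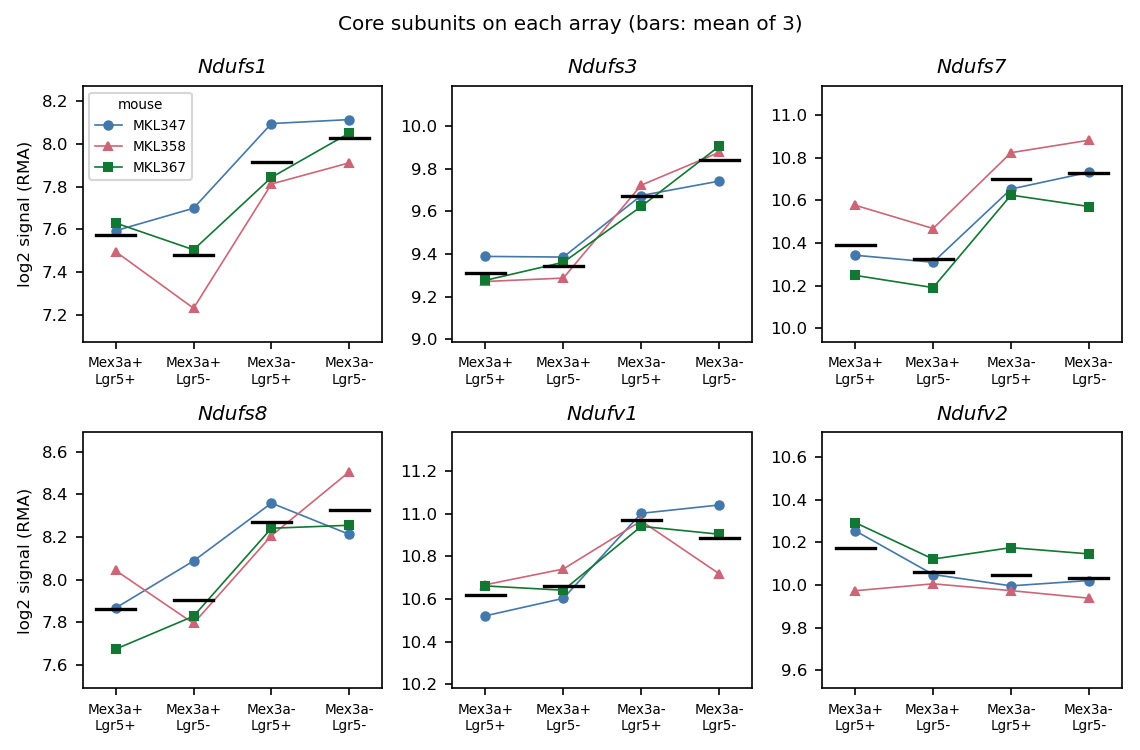
Log2 RMA signal (vertical axes, each spanning 1.2 units) of the 6 core subunits in the 4 sorted populations, 1 point per mouse joined by lines, with a bar at the mean of 3 arrays. In 5 panels the Mex3a+ populations on the left lie lower; Ndufv2 stays between 9.94 and 10.29 throughout.

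In the matrix arm 7 of 9 accessory subunits fell and 2 did not pass, with a median log2 difference of -0.31. Ndufa9, which lies near the ubiquinone site where the arms meet, ran from 9.12 through a median of 9.18 to 9.36 on the Mex3a+ arrays, against 9.67 through 9.76 to 9.89 on the Mex3a- arrays. The gap between the groups was wider than the range of either group. Its log2 difference, -0.58 ± 0.058 (SE, limma adjusted p = 7.05e-05), was the most negative of the 41 genes.

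Ndufa12, a subunit of the NADH-oxidising module, ran from 10.04 through 10.14 to 10.34 on the Mex3a+ arrays, against 10.39 through 10.48 to 10.67 on the Mex3a- arrays (log2 difference -0.36 ± 0.066, SE, limma adjusted p = 0.0021). Ndufs4, a late-joining subunit of the same module whose loss in mice is a model of Leigh syndrome, ran from 9.34 through 9.48 to 9.71 on the Mex3a+ arrays, against 9.75 through 9.80 to 9.94 on the Mex3a- arrays (log2 difference -0.34 ± 0.058, SE, limma adjusted p = 0.00146). The arrays of both genes separated fully by Mex3a status. Ndufs4 was not called when its 3 probe sets were averaged or without MKL367. Its other probe sets had mean levels of 4.63 and 3.89, near or under the filter level of 4.40, against 9.66 for the one reported.

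Ndufv3, Ndufs6, Ndufa5 and Ndufa2 also fell, with log2 differences of -0.33, -0.31, -0.28 and -0.15. The call for Ndufa2 was lost in 8 of the 24 alternative fits, among them both rescalings and the omission of each mouse, and that for Ndufa5 without MKL347. At the other end of the class stood Ndufa6, a subunit that anchors the mitochondrial acyl carrier protein, and Ndufa7. Ndufa6 ran from 8.62 through 8.70 to 8.79 on the Mex3a+ arrays, against 8.67 through 8.85 to 9.04 on the Mex3a- arrays (log2 difference -0.14 ± 0.070, SE, limma adjusted p = 0.149). Ndufa7 ran from 8.95 through 9.16 to 9.22 on the Mex3a+ arrays, against 9.18 through 9.23 to 9.49 on the Mex3a- arrays (log2 difference -0.14 ± 0.066, SE, limma adjusted p = 0.131). Both genes overlapped between groups.

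Of the 16 accessory subunits of the membrane arm, 12 fell and 4 did not pass, with a median log2 difference of -0.31. Ndufa8, a cysteine-rich subunit on the intermembrane-space face, ran from 9.39 through 9.59 to 9.79 on the Mex3a+ arrays, against 10.02 through 10.19 to 10.29 on the Mex3a- arrays (log2 difference -0.58 ± 0.068, SE, limma adjusted p = 1.78e-04). Ndufb10, likewise a cysteine-rich subunit facing that space, ran from 8.53 through 8.57 to 8.72 on the Mex3a+ arrays, against 9.02 through 9.07 to 9.15 on the Mex3a- arrays (log2 difference -0.49 ± 0.056, SE, limma adjusted p = 1.66e-04). The 2 groups of Ndufb10 arrays were tight and far apart, with an SD of 0.06 in each.

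Ndufb5 ran from 8.41 through 8.57 to 8.72 on the Mex3a+ arrays, against 8.89 through 9.03 to 9.17 on the Mex3a- arrays (log2 difference -0.46 ± 0.073, SE, limma adjusted p = 9.15e-04). It separated fully as well. The other genes that fell were Ndufb9 (-0.46), Ndufa10 (-0.39), Ndufb7 (-0.39), Ndufb4 (-0.34), Ndufb8 (-0.32), Ndufc1 (-0.29), Ndufb3 (-0.27), Ndufb2 (-0.26) and Ndufa3 (-0.25). Ndufa3 and Ndufb2 were each lost in 14 of the 24 alternative fits and Ndufb4 in 6. Ndufb9, Ndufb7 and Ndufb3 were lost without MKL347 and without MKL367, and Ndufc1 without MKL367. Near-identical copies exist for Ndufb4, so its probe set may not report that gene alone.

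By their brightest probe sets, the least changed genes of this arm were Ndufa11, a membrane subunit where complex I meets complex III, and Ndufb11, an X-linked subunit. Ndufa11 ran from 9.14 through 9.25 to 9.43 on the Mex3a+ arrays, against 9.20 through 9.31 to 9.66 on the Mex3a- arrays (log2 difference -0.09 ± 0.079, SE, limma adjusted p = 0.431). A dimmer second probe set of Ndufa11 went the other way, with a log2 difference of 0.27 (limma adjusted p over probe sets = 0.0527). Ndufb11 ran from 10.51 through 10.56 to 10.63 on the Mex3a+ arrays, against 10.61 through 10.68 to 10.73 on the Mex3a- arrays (log2 difference -0.10 ± 0.041, SE, limma adjusted p = 0.0847). It was lower in all 6 same-mouse pairs and passed with the mouse as a block (limma adjusted p = 0.0265). Other probe sets of Ndufb11 gave -0.29 (limma adjusted p over probe sets = 0.0205) and -0.11 (0.133). With probe sets averaged the gene was called lower. Ndufa1, the other X-linked subunit, had a log2 difference of -0.18 (limma adjusted p = 0.0585; 0.00908 with the mouse as a block), and Ndufc2 had -0.10 (limma adjusted p = 0.445).

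Of the 7 assembly factors 3 fell and 4 did not pass, with a median log2 difference of -0.19. Ndufaf4, which with Ndufaf3 acts on an early matrix-arm intermediate, ran from 6.30 through 6.59 to 6.66 on the Mex3a+ arrays, against 6.89 through 7.07 to 7.24 on the Mex3a- arrays. The groups did not overlap, and the log2 difference was -0.52 ± 0.092 (SE, limma adjusted p = 0.00167). Ndufaf3 itself ran from 5.69 through 5.76 to 6.11 on the Mex3a+ arrays, against 5.97 through 6.13 to 6.31 on the Mex3a- arrays (log2 difference -0.30 ± 0.078, SE, limma adjusted p = 0.0156).

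Ndufaf8, a partner of Ndufaf5, ran from 8.12 through 8.17 to 8.52 on the Mex3a+ arrays, against 8.50 through 8.68 to 8.88 on the Mex3a- arrays (log2 difference -0.42 ± 0.097, SE, limma adjusted p = 0.00751). Ndufaf5, an enzyme that modifies Ndufs7, ran from 5.72 through 5.80 to 5.95 on the Mex3a+ arrays, against 5.73 through 5.84 to 6.02 on the Mex3a- arrays (log2 difference -0.04 ± 0.067, SE, limma adjusted p = 0.725). By their brightest probe sets the partners thus differed in their values, one called and one at almost the same level in both groups. A second probe set of Ndufaf8 gave -0.18 and did not pass (limma adjusted p over probe sets = 0.112). The difference between the partners was not tested. Calls for Ndufaf3 and Ndufaf8 were lost without MKL347 and without MKL367. The call for Ndufaf3 was also lost with median centring, and that for Ndufaf8 with the further quantile normalization.

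Ndufaf1, which acts on a membrane-arm intermediate, was near the filter level of 4.40 and scattered widely. It ran from 4.29 through 4.85 to 5.12 on the Mex3a+ arrays, against 4.53 through 5.01 to 5.08 on the Mex3a- arrays (log2 difference -0.16 ± 0.14, SE, limma adjusted p = 0.42). Ndufaf2, a chaperone related to Ndufa12, and Ndufaf6 both had log2 differences of -0.19 (limma adjusted p = 0.102 and 0.14). Both passed with the mouse as a block, at limma adjusted p = 0.0196 for Ndufaf2 and 0.0494 for Ndufaf6, which made the count 5 of 7.

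The 2 Nduf-named genes outside the enzyme did not pass. Ndufa4, now assigned to complex IV, ran from 10.44 through 10.56 to 10.70 on the Mex3a+ arrays, against 10.47 through 10.60 to 10.74 on the Mex3a- arrays (log2 difference -0.04 ± 0.055, SE, limma adjusted p = 0.613). Ndufa4l2, its hypoxia-induced relative, ran from 5.17 through 5.37 to 5.75 on the Mex3a+ arrays, against 5.26 through 5.37 to 5.77 on the Mex3a- arrays (log2 difference -0.01 ± 0.11, SE, limma adjusted p = 0.965). Their arrays overlapped almost completely, and the sign of both values turned under median centring. Ndufs5-ps fell by 0.41 on the log2 scale (limma adjusted p = 4.20e-04), with arrays from 8.95 to 9.15 in Mex3a+ cells and from 9.38 to 9.58 in Mex3a- cells; its probe set cannot be told apart from the parent gene Ndufs5.

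Roles were also set side by side within each mouse, as the median over genes of the Mex3a+ minus Mex3a- difference averaged over both Lgr5 states. For the core subunits it was -0.34, -0.38 and -0.38 in MKL347, MKL358 and MKL367. For the accessory subunits of both arms it was -0.25, -0.33 and -0.32, and for the assembly factors -0.10, -0.35 and -0.19. Core subunits had the most negative median in each of the 3 mice, and assembly factors the least negative in MKL347 and MKL367 but not in MKL358. The order did not hold in each Lgr5 state: in Lgr5+ cells of MKL358 the medians were -0.27 for the core, -0.30 for the accessory subunits and -0.31 for the assembly factors. All genes tested had medians of -0.010, -0.022 and -0.022. The order of the roles is a description without a test, and the ranges of single genes overlapped across roles, from -0.45 to 0.07 in the core, -0.58 to -0.09 in the accessory subunits and -0.52 to -0.04 in the assembly factors.

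Another 30 probe sets reported the same genes, over 21 of the 41. Of these, 27 passed the filter, 25 had negative differences and 16 fell at a limma adjusted p under 0.05 over 19883 probe sets, where 15.7% fell; none rose. The 2 positive ones belonged to Ndufa11 (above) and Ndufa10, whose dim second probe set had a log2 difference of 0.0013 while its bright one fell by 0.39 on the log2 scale.

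No complex I gene passed between Lgr5+ and Lgr5- cells in limma's test averaged over both Mex3a states, none had an unadjusted p under 0.05, and 0.0397% of all genes (5 genes) passed, with 783 below an unadjusted 0.05. A fit with mice as blocks called no member, with 1 below an unadjusted 0.05; over all genes it called 1.8%, with 1758 below an unadjusted 0.05. The median log2 difference over the 41 genes was -0.016, against 0.0083 over all genes, and single genes ranged from -0.16 (Ndufa4l2) to 0.10 (Ndufaf3). Ndufs3 had the smallest unadjusted p, with a log2 difference of -0.10 ± 0.052 (SE; limma adjusted p = 0.893).

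Set apart by Lgr5 state, the Mex3a difference was present in both. Among Lgr5+ cells 11 of the 41 genes fell in Mex3a+ cells and none rose, where 4.8% of all genes fell, with a median log2 difference of -0.23 against -0.0078 over all genes. Among Lgr5- cells 26 fell and none rose, where 11.7% of all genes fell, with a median of -0.36 against -0.025. With the mouse as a block the count was 24 in Lgr5+ cells, where 13.2% of all genes fell, and 32 in Lgr5- cells, where 21.1% fell. Ndufa9 had log2 differences of -0.53 in Lgr5+ and -0.64 in Lgr5- cells, and Ndufa8 had -0.48 and -0.68. Ndufv1 had -0.35 in Lgr5+ cells (limma adjusted p = 0.0236) and -0.23 in Lgr5- cells (limma adjusted p = 0.0751; 0.0386 with the mouse as a block).

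The counts of 11 and 26, from the fit that left the pairing by mouse out, hung on single arrays and mice. In Lgr5+ cells limma called none without MKL347, where 0.143% of all genes fell, and none without MKL367, where 1.01% fell; 18 and 15 members were then below an unadjusted 0.05. Leaving out 1 Mex3a+ Lgr5+ array gave 4 (MKL347) or 3 (MKL367), where 1.28% and 0.977% of all genes fell. Leaving out 1 Mex3a- Lgr5+ array gave 2 (MKL347), 3 (MKL358) or 7 (MKL367), where 0.969%, 1.06% and 3.74% of all genes fell. In Lgr5- cells the count was 2 without MKL347, where 1.52% of all genes fell, and 5 without MKL367, where 3.83% fell. It was 13 when only the MKL367 array of Mex3a+ Lgr5- cells was left out, where 5.88% of all genes fell. When only the MKL347 array of Mex3a- Lgr5- cells was left out it was 16, where 7.19% of all genes fell. Under the further quantile normalization the count was 7 in Lgr5+ cells, where 4.18% of all genes fell. In Lgr5- cells it was then 12, where 7.88% of all genes fell.

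The difference between the Lgr5 states was itself tested as an interaction. No member passed in limma's fit, with or without the mouse as a block, and 0% of all genes did. Ndufa1 alone of the members was below an unadjusted 0.05, among 359 such genes, and 6 members were in the blocked fit, among 1078. The interaction was positive in 36 of the 41 genes, of which 32 had a negative Mex3a difference in Lgr5+ cells, and in 57.2% of all genes. Its median was 0.12 over the 41 genes, against 0.029 over all genes. Ndufb4 had the largest value, 0.41 ± 0.20 (SE), and Ndufv1 the most negative, -0.13. Ndufa1 averaged 10.18 ± 0.18 in Mex3a+ Lgr5+ and 9.98 ± 0.087 in Mex3a+ Lgr5- cells, against 10.21 ± 0.066 in Mex3a- Lgr5+ and 10.31 ± 0.091 in Mex3a- Lgr5- cells (SD, n = 3 each). The counts of 11 and 26 are thus not shown to differ.

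**Figure D4:**
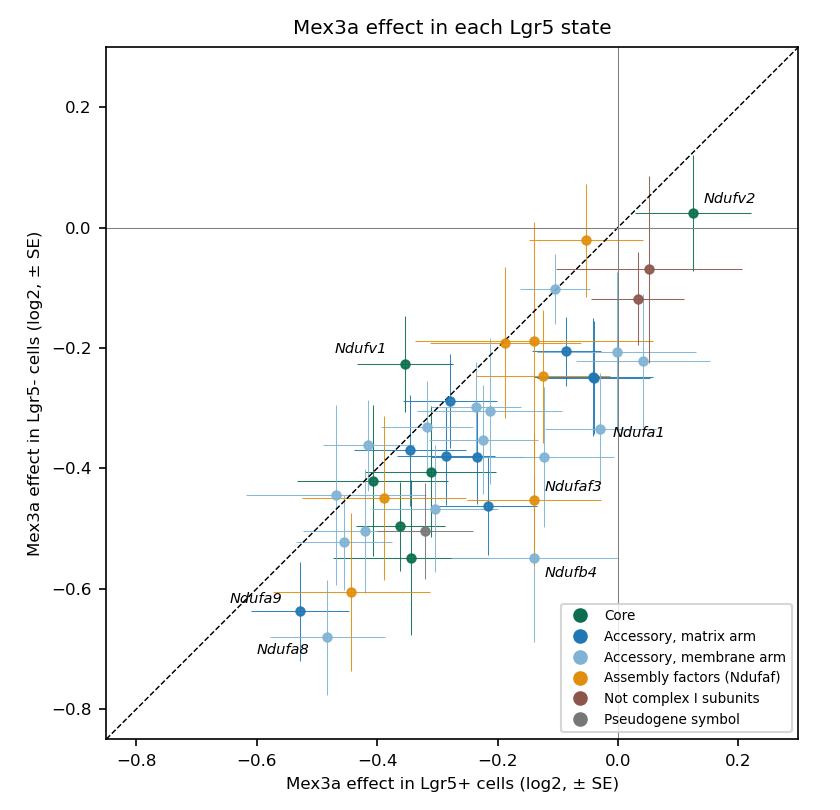
Mex3a effect (Mex3a+ minus Mex3a-, log2, with limma's standard errors) in Lgr5+ cells (horizontal axis) and Lgr5- cells (vertical axis) for the 41 Nduf genes, coloured by role; the dashed line marks equal effects. Most points lie below the line, 36 of 41, and no interaction passed the test.

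The average level over the 41 genes ordered the populations the same way in each mouse. As a deviation from the mean of all 12 arrays, averaged over genes, it was -0.10, -0.10 and -0.16 in Mex3a+ Lgr5+ cells and -0.15, -0.17 and -0.18 in Mex3a+ Lgr5- cells, against 0.08, 0.16 and 0.08 in Mex3a- Lgr5+ cells and 0.15, 0.22 and 0.18 in Mex3a- Lgr5- cells (mice MKL347, MKL358 and MKL367). Mex3a- Lgr5- cells were highest and Mex3a+ Lgr5- cells lowest in all 3 mice. Over all genes tested Mex3a+ Lgr5- cells were also lowest in all 3 mice, at -0.0064, -0.049 and -0.049, and Mex3a- Lgr5- cells stood at 0.040, 0.0070 and 0.037.

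The neighbouring lists of mitochondrial genes were read in the average Mex3a contrast beside the 17.3% of all genes that fell, and no test set them against complex I. In that contrast 3 of 4 complex II genes fell, with a median log2 difference of -0.48. They were led by Sdhb, its iron-sulphur subunit (-0.46, limma adjusted p = 1.13e-04), and Sdhd, a membrane anchor (-0.72, limma adjusted p = 2.16e-04). In complex III 6 of 8 fell, with a median of -0.38, among them cytochrome c1 (Cyc1, -0.51, limma adjusted p = 3.85e-05) and Uqcrc1 (-0.42, limma adjusted p = 3.46e-04).

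Complex IV had 8 of 9 lower, with a median of -0.28 and with Cox6a1 and Cox4i1 both at -0.31 (limma adjusted p = 1.19e-04 and 3.98e-04). Of 15 genes of complex V, the ATP synthase, 14 fell, with a median of -0.30, among them Atp5d (-0.43, limma adjusted p = 3.30e-04) and Atp5g1 (-0.46, limma adjusted p = 4.32e-04). Tricarboxylic acid cycle enzymes, which supply NADH, fell in 8 of 11 genes (median -0.26; Suclg1 -0.67, Idh3b -0.32). No gene of these lists rose. The blocked fit added Sdha, Uqcrc2, Uqcr10, Cox7c and Atp5g2 to the genes that fell.

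Genes that serve complex I from outside, and complex I genes outside the naming rule, were mixed. Of 11 factors for iron-sulphur cluster assembly 7 fell (median -0.23; Nfu1 -0.62, Bola3 -0.45). In the blocked fit 8 fell and Iba57, a factor for late steps of cluster assembly, rose (0.23, limma adjusted p = 0.0429, and 0.0859 without the block), where 15.9% of all genes rose. Of 10 electron carriers and supercomplex factors 5 fell (median -0.27; Cycs, cytochrome c, -0.40, and Higd1a -0.66). Of 11 complex I genes outside the naming rule, most of them assembly factors, 2 fell and 9 did not pass, with a median of -0.039. That count is near the share over all genes. Those 2 were Ndufab1, the acyl carrier protein (-0.35, limma adjusted p = 0.00305), and Acad9, an assembly factor (-0.29, limma adjusted p = 0.0239). Among the others Timmdc1 was at 0.0044, Nubpl at 0.13 and Tmem126b at 0.17, and none passed.

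Of 11 regulators of mitochondrial gene expression 4 fell and 7 did not pass, with a median of -0.12, again with 17.3% of all genes lower. Ppargc1b, a coactivator of mitochondrial genes, had the largest difference (-1.51, limma adjusted p = 7.31e-04), followed in p by Esrra, the receptor it works with (-0.49, limma adjusted p = 0.00137). Nrf1 was at -0.12 (limma adjusted p = 0.167), Gabpa at 0.03 (limma adjusted p = 0.797) and Tfam at -0.04 (limma adjusted p = 0.783). No gene of any mitochondrial list passed in the Lgr5 contrast.

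**Figure D5:**
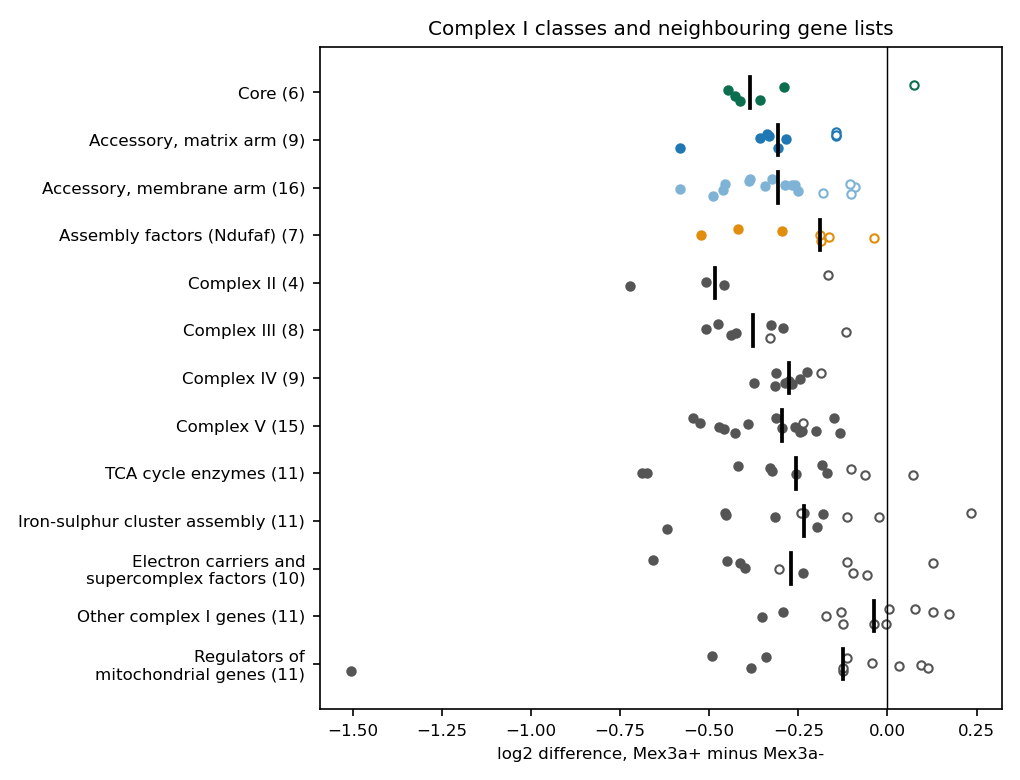
Log2 difference between Mex3a+ and Mex3a- arrays (horizontal axis) for the complex I roles and the other mitochondrial lists (rows, with the number of genes tested); each point is a gene, filled where the adjusted p was under 0.05, and bars mark medians. Medians run from -0.48 in complex II to -0.039 in the other complex I genes.

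Markers of differentiated cells were also lower in Mex3a+ cells, in a contrast where 17.3% of all genes fell. All 9 colonocyte markers tested fell in Mex3a+ cells (median log2 difference -3.19; Car1 -3.22, limma adjusted p = 1.49e-06), and their mean level relative to each gene's own mean ran from -1.59 to -0.52 on the Mex3a+ arrays, against 0.49 to 1.88 on the Mex3a- arrays. All 7 goblet cell markers fell (median -1.07; Zg16 -5.19), with a mean relative level from -1.41 to -0.36 on the Mex3a+ arrays, against 0.28 to 1.65 on the Mex3a- arrays. Of 8 general epithelial markers 7 fell (median -0.48), with a mean relative level from -0.50 to -0.14 in Mex3a+ cells, against 0.15 to 0.52 in Mex3a- cells. These 7 ranged from -1.31 for Cdx1, -1.11 for Cdx2 and -1.06 for Vil1 to -0.21 for Krt8 and -0.16 for Epcam. Krt18 was at 0.11 (limma adjusted p = 0.238). With the mouse as a block it rose (limma adjusted p = 0.0293), where 15.9% of all genes rose. Between Lgr5+ and Lgr5- cells the colonocyte markers had a median log2 difference of -0.54, with 1 called lower. The goblet cell markers had -0.094 there with none called, and the 41 complex I genes had -0.016 with none called. The part of these marker differences in the complex I values was not tested.

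Few markers of other tissues passed without the block. None of 7 fibroblast and smooth muscle markers, 5 endothelial, 3 neutrophil and 4 lymphocyte markers passed, and of 5 myeloid markers only Cd14 fell (-1.02, limma adjusted p = 4.13e-04). With the mouse as a block the neutrophil markers S100a8 (-1.14, limma adjusted p = 0.00133) and S100a9 (-0.85, limma adjusted p = 0.00266) fell, where 25.3% of all genes fell. Csf3r of the same list did not pass (-0.22, limma adjusted p = 0.0901). In the same fit Acta2 of the fibroblast list (0.42, limma adjusted p = 0.0179) and Cdh5 of the endothelial list (0.30, limma adjusted p = 0.0458) rose, where 15.9% of all genes rose. The part of these cells in the complex I values was not tested. The mean relative level of the fibroblast list ran from -0.19 to 0.02 on the Mex3a+ arrays, against -0.21 to 0.90 on the Mex3a- arrays, and that of the neutrophil list from -0.76 to 0.44 on the Mex3a+ arrays, against -0.50 to 1.70 on the Mex3a- arrays. Pdgfra, Col1a2 and Lum of the fibroblast list, Tek of the endothelial list, Itgam and Adgre1 of the myeloid list, and Ptprc, Cd3e, Ms4a1 and Nkg7 of the lymphocyte list stayed under the filter level on all 12 arrays.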

How the data were processed

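Total RNA of 12 sorted cell pools was amplified as a whole transcriptome, labelled and hybridised to Affymetrix arrays, per the labels' protocols. The authors deposited log2 values for 45141 probe sets, made with RMA per the submitters' processing notes, which name no version. RMA normally includes a quantile step; array medians of the deposited values still ran from 4.90 to 4.92 in Mex3a+ and from 4.86 to 4.90 in Mex3a- cells, and 2 rescalings were tried. Scanner files were not used here, so detection and saturation are unknown, and the number of arrays limits the precision.

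GEO's platform annotation gave 1 symbol to 28898 probe sets, several to 551 and none to 15588; 104 were controls. Each of 17097 genes took its brightest probe set, and 12595 genes with a signal over 4.40 (percentile 40 of the table) on at least 3 arrays were tested. Contrasts of 4 group means were fitted with limma 3.58.1 in R 4.3.3 (lmFit, eBayes with an intensity trend, 2-sided, Benjamini-Hochberg adjustment over all genes), after a test on simulated data; SE is limma's. The mouse numbers in the labels pair the samples, and the main fit leaves this pairing out. It enters only as the fixed or random block among the alternatives. Residual correlations were 0.35 to 0.69 within a mouse (18 pairs) and -0.69 to 0.15 between mice (48 pairs). Group means were taken off first, which by itself pushes the values between mice down.

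Genes given with values are the core subunits, the 3 lowest and 2 highest of each other role, Ndufa4 and Ndufa4l2, and 2 genes of each other list with the smallest p; further genes were chosen after their values were seen. The members and lists were chosen with earlier results of these data known. Alternatives were the mouse as a fixed or random block, other filters, the rescalings, averaged probe sets, no trend, weighted arrays, and omission of mice or arrays one at a time. Motif matches had no test.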

Additional observations from a re-analysis of the deposited data

How the results depend on the processing

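The median log2 difference of the 41 genes in the average Mex3a contrast, -0.30, was -0.21 with a further quantile normalization and -0.24 with median centring. The count of 28 ran from 14 to 28 when a mouse or an array was left out, where 5.83% to 17.7% of all genes fell. It was 32 in the paired analysis with the mouse as a replicate block, where 25.3% of all genes fell. In Lgr5+ cells the count of 11, where 4.8% of all genes fell, was 24 with the block (13.2% of all genes). It was 23 with the mouse as a random effect (11.6%) and 20 with array weights (10.9%). Quantile normalization (4.18%) and centring (4.14%) each gave 7. In the leave-outs the count ran from 0 to 14, where 0.143% to 6.33% of all genes fell. In Lgr5- cells 11.7% of all genes fell beside the count of 26. That count was 12 with quantile normalization (7.88% of all genes) and 15 with centring (8.56%). It ran from 2 to 27 in the leave-outs, where 1.52% to 12% of all genes fell. The median of -0.36 was -0.24 with quantile normalization and -0.29 with centring. The interaction median of 0.12 was 0.054 with quantile normalization, 0.088 with centring and 0.14 with array weights, and ran from 0.099 to 0.15 in the leave-outs. Causes of these moves were not tested, except that the leave-outs had fewer arrays. Signs turned in 4 genes that were not called: Ndufa11 was 0.0091 with quantile normalization and 0.092 with probe sets averaged, Ndufa4 was 0.050 with quantile normalization and 0.00836 with centring, Ndufa4l2 was 0.042 with centring and from -0.083 to 0.056 in the leave-outs, and Ndufaf5 was 0.014 with centring and from -0.088 to 0.0037 in the leave-outs.

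Of the 28 genes that fell, 12 were called in all 24 alternatives: Ndufs3, Ndufa9, Ndufa12, Ndufs6, Ndufv3, Ndufa8, Ndufa10, Ndufb5, Ndufb8, Ndufb10, Ndufaf4 and Ndufs5-ps. The paired fit removed none of the 28 and added 4. Over the 41 single genes and these alternatives 893 values kept direction and side of the threshold, 64 lost the call and 12 gained it.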
